A study of Mus musculus with 22 samples.

Results

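The response of the mouse intestine to PFOS was compared between 2 fermentable fibres, as the response on pectin minus the response on inulin. PFOS (perfluorooctanesulfonic acid) is a persistent fluorinated surfactant. All 14 libraries that carry a pectin or inulin label were used, out of 22 in the series: Pectin_PFOS (n = 4), Pectin (n = 4), Inulin_PFOS (n = 3) and Inulin (n = 3). Every library came from intestinal tissue of male wild-type mice of the inbred strain C57BL/6. They were 7 weeks old when the 7-week diets began. Fibre made up 8% of the weight of every diet, and fat, protein and carbohydrate supplied 35%, 20% and 45% of its energy as the labels give them. The Pectin_PFOS and Inulin_PFOS groups drank water with PFOS, at 3 µg per kg of body weight per day, and the Pectin and Inulin groups were read from their titles as unexposed. The remaining 8 libraries, on cellulose with and without PFOS, entered the low-count filter, the scaling and the estimate of the spread, but none of the comparisons. The labels give neither the gut segment nor whether each sample is a separate animal, so p-values measure the spread between samples.

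PFOS is known as a ligand of PPAR-alpha, the nuclear receptor that switches on fatty acid oxidation, and it also engages the xenobiotic receptors PXR and CAR. Inulin, a fructan, and pectin, a galacturonan, escape digestion and are fermented by gut bacteria to short-chain fatty acids. The intestinal lining renews itself from crypt stem cells. Its enterocytes carry digestive enzymes and transporters on their brush border, Paneth cells at the crypt base secrete antimicrobial peptides, and goblet cells secrete mucus. Beneath the epithelium lie fibroblasts, macrophages, IgA-secreting plasma cells, nerves and smooth muscle. In pieces of whole tissue, fewer cells of a type and less RNA per cell cannot be told apart.

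The 14 libraries held between 17928420 and 20261370 counts each. Pectin_PFOS replicate 1 and Inulin replicate 1 stood apart from the others, on the same side: they scored −52 and −58.6 on the first principal component, which held 29.5% of the variance, against −19.7 to 28.2 in the other 12. Since one is an exposed pectin library and the other an unexposed inulin library, they push the difference of the responses the same way, and the results below are given with and without them. On the second component, with 15.4% of the variance, Pectin replicate 4 scored −29.5 against 15.9 to 17.8 in the other Pectin libraries. Its fat absorption genes summed to 7950 CPM, against 41900 to 56400 CPM in those. Pectin replicate 4 was left out only in the fits without 1 library. Mitochondrially encoded genes took 2.85% to 3.51% of the counts in Pectin_PFOS and 3.88% to 7.36% in Pectin, against 3.95% to 7.9% in Inulin_PFOS and 5.16% to 12.2% in Inulin. The ileal genes Fabp6, Slc10a2, Fgf15 and Slc51b summed to 2290 to 5960 counts per 1000000 (CPM) in every library. Fgf15 alone ran from 1 to 142 CPM within Inulin and from 4.96 to 68.8 CPM within Pectin. Genes of the proximal small intestine summed to 60.6 to 232 CPM. Among them Gata4 ran from 1.7 to 52.1 CPM in Pectin_PFOS and from 0.442 to 17.6 CPM in Pectin. It had 0.736 to 1.05 CPM in Inulin_PFOS and 1.28 to 3.51 CPM in Inulin. Whether the libraries share a gut position was not tested. The distal colon markers Hoxd13 and Hoxb13 were at 0 in 14 and 13 libraries, and 5 of the 7 exocrine pancreas genes were at 0 in 10 or more.

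Most genes called for a different PFOS response had opposite signs on the 2 fibres. Choosing genes by a large difference favours this by itself. Of 15763 genes tested, 4007 had a different PFOS response on pectin and on inulin (25.4%), 2071 of them with a higher response on pectin and 1936 with a lower one (13.1% and 12.3% of all genes tested; edgeR quasi-likelihood F test, adjusted p under 0.05). Among the 2071, 2026 had a positive fold change on pectin and a negative one on inulin. Among the 1936, 1902 had the reverse signs, whereas the 2 responses differed in sign for 68.2% of all genes tested. The test of each response alone called 3277 genes on pectin (20.8%), with 1790 higher (11.4%) and 1487 lower (9.43%) in Pectin_PFOS. On inulin it called 25 genes (0.159%), with 11 higher (0.0698%) and 14 lower (0.0888%) in Inulin_PFOS, although 2963 had an unadjusted p under 0.05. Nearly all the inulin signs thus belong to responses not called on their own.

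**Figure D1:**
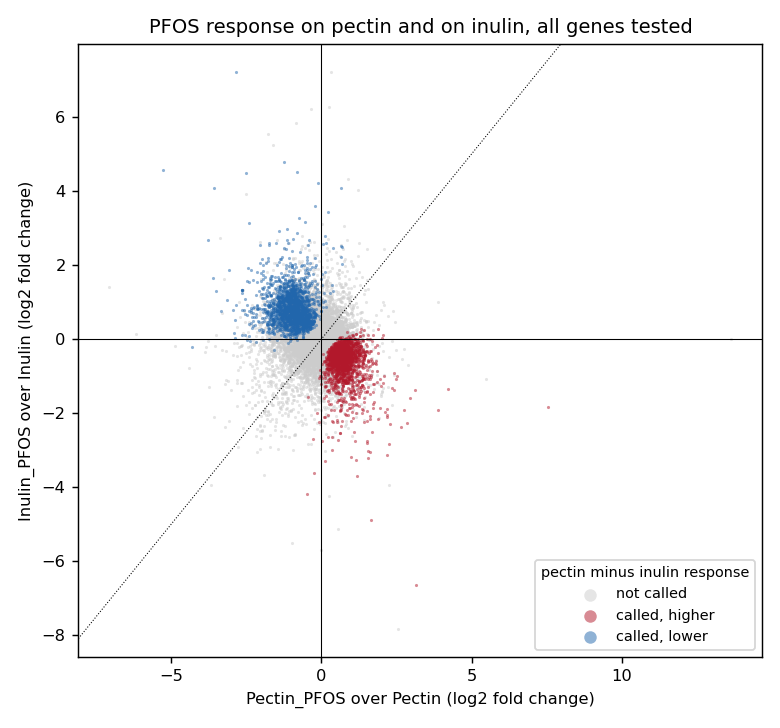
Each point is 1 of the 15763 genes tested, with the log2 fold change of Pectin_PFOS over Pectin across and of Inulin_PFOS over Inulin upwards; the dotted line marks equal responses. The 2071 genes called higher lie mainly at the lower right and the 1936 called lower mainly at the upper left.

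The same data were also read library by library. Exposed and unexposed libraries did not overlap, in either direction, for 25.6% of all genes on pectin and for 24.4% on inulin. For 475 genes (3.01%) every Pectin_PFOS library lay above every Pectin library while every Inulin_PFOS library lay below every Inulin library, and for 463 (2.94%) both orders were turned round. Both fibres moved the same way, without overlap, for 55 genes (0.349%) with PFOS higher and 32 (0.203%) with PFOS lower. The number of called genes depended on single libraries. Without Inulin replicate 1 the model called 1353 genes, without Inulin_PFOS replicate 3 it called 2172, and without Pectin_PFOS replicate 1 and Inulin replicate 1 together it called 421, all of them among the 4007. Those 421 were 298 with a higher and 123 with a lower response on pectin. Without the same pair, 1277 genes were called on pectin and 2 on inulin. The response on pectin alone was called for 1360 genes without Pectin_PFOS replicate 1, 1567 without Pectin replicate 1 and 1686 without Pectin replicate 2. Of 71 called genes that were followed through every alternative, which are most of those described below, 26 were still called without the pair and 55 were called whichever single library was left out. Lists are given below with the range of their number of called members over the 14 fits without 1 library, and in every list the low end was reached without Inulin replicate 1, in some also without another library.

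**Figure D2:**
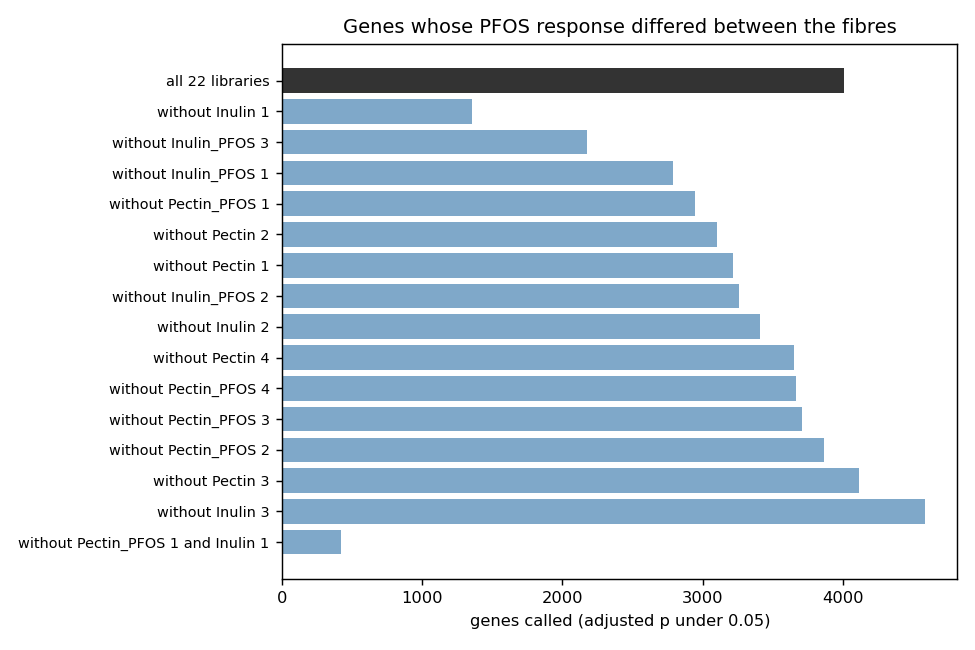
Bars give the number of genes whose PFOS response differed between pectin and inulin, with all 22 libraries (dark bar, 4007) and with libraries left out. The lowest bars are those without Inulin replicate 1 (1353) and without that library and Pectin_PFOS replicate 1 together (421).

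Cyp2d26, a cytochrome P450 of the Cyp2d family (chr15:82790107-82794245, GRCm38), was called in every comparison. Its level was 118, 67.6, 125 and 98.2 CPM in Pectin_PFOS and 27, 41.8, 30 and 27.5 CPM in Pectin, against 37.6, 63.4 and 58.2 CPM in Inulin_PFOS and 413, 334 and 152 CPM in Inulin. No exposed library overlapped an unexposed one on either fibre: on pectin the exposed libraries were the higher ones and on inulin the lower ones, and Inulin without PFOS held the highest levels of the 4 groups. The log2 fold change was 1.70 ± 0.39 on pectin (SE; adjusted p = 0.00858) and −2.50 ± 0.47 on inulin (adjusted p = 0.0282), a difference of 4.19 ± 0.61 (adjusted p = 0.00376). Without the 2 outlying libraries the difference was 3.83 (adjusted p = 0.0362).

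Several transporters and metabolic enzymes had the same pattern with wider scatter. Slc5a4a, a sodium-coupled sugar transporter family member (chr10:76147451-76189265), had 10.7, 2.52, 23.8 and 18 CPM in Pectin_PFOS and 1.5, 3.25, 0.5 and 1.02 CPM in Pectin, against 1.02, 3.15 and 3.25 CPM in Inulin_PFOS and 8.55, 7.23 and 3.4 CPM in Inulin. Acaa1b, a peroxisomal thiolase of fatty acid oxidation (chr9:119148023-119157093), had 30.3, 3.86, 23.1 and 10.9 CPM in Pectin_PFOS and 6.22, 8.7, 4.44 and 4.07 CPM in Pectin, against 3.06, 4.2 and 5.74 CPM in Inulin_PFOS and 38.3, 32.5 and 20 CPM in Inulin. For both genes Pectin_PFOS replicate 2 did not exceed the highest Pectin library, while the 2 inulin groups did not overlap. The differences of the responses were 4.49 ± 1.02 for Slc5a4a (adjusted p = 0.00783) and 4.33 ± 0.82 for Acaa1b (adjusted p = 0.00465), and both calls held without the 2 outlying libraries. The response on pectin alone was called for both genes, and the response on inulin for neither (adjusted p = 0.329 for Slc5a4a and 0.0639 for Acaa1b).

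Slc28a1, a concentrative nucleoside transporter, differed by 6.53 ± 1.80, Slc2a2, the facilitative glucose transporter GLUT2, by 5.30 ± 1.69, and Aqp3, a water and glycerol channel, by 4.42 ± 1.18. Fbp1, which catalyses a late step of gluconeogenesis, differed by 3.76 ± 1.03 (adjusted p = 0.0162). Slc2a2 ranged from 2.46 to 120 CPM within Pectin_PFOS and from 0.398 to 36.9 CPM within Pectin, and its call was lost without any 1 of 6 libraries (Inulin replicate 1, each Inulin_PFOS library, Pectin replicate 1 and Pectin_PFOS replicate 3; adjusted p up to 0.0955). Slc28a1 lost its call without Inulin_PFOS replicate 3. None of these 4 genes was called without the 2 outlying libraries together (adjusted p from 0.0588 to 0.104). Within Pectin all 4 were highest in replicate 2, and within Pectin_PFOS in replicate 3 and then 4, as was Slc5a4a. Gata4, the marker of the proximal small intestine, was highest in the same libraries. It had 17.6 CPM in Pectin replicate 2, and 52.1 and 25.1 CPM in Pectin_PFOS replicates 3 and 4. The part of gut position in these genes was not tested.

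At the other end stood genes with a lower response on pectin than on inulin. Lrg1, a secreted leucine-rich glycoprotein induced in inflammation (chr17:56119680-56121946), had 2.11, 10.6, 4.34 and 7.1 CPM in Pectin_PFOS and 4, 3.44, 6.28 and 26.2 CPM in Pectin, against 13, 8.01 and 7.96 CPM in Inulin_PFOS and 0.783, 1.39 and 0.781 CPM in Inulin. The pectin groups overlapped, while every Inulin_PFOS library lay above every Inulin library, and the difference of the responses was −4.01 ± 0.87 (adjusted p = 0.00667). Mnda, an interferon-inducible gene of the Ifi200 family, had 0.593, 0.644, 0.845 and 0.417 CPM in Pectin_PFOS and 3.5, 2.82, 4.5 and 1.81 CPM in Pectin, against 2.72, 2.93 and 3.03 CPM in Inulin_PFOS and 0.542, 1.11 and 0.725 CPM in Inulin. Every Pectin_PFOS library lay below every Pectin library and every Inulin_PFOS library above every Inulin library. The difference was −4.18 ± 0.70 (adjusted p = 0.00376), and like Lrg1 the gene was called without the 2 outlying libraries. The response of Mnda on inulin alone was not called (adjusted p = 0.104).

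Ccl8, a monocyte-attracting chemokine, differed by −4.34 ± 1.01, Gsdmc4, a gasdermin of the gut epithelium, by −4.33 ± 1.01, and Adamts5, a metalloproteinase that cleaves proteoglycans, by −4.11 ± 0.99 (adjusted p from 0.00836 to 0.00951). The inulin groups did not overlap for Ccl8 and Gsdmc4. Adamts5 instead fell on pectin by 3.34 on the log2 scale (adjusted p = 0.00481), and its inulin groups overlapped. Each of these 3 lost its call without the 2 outlying libraries (adjusted p from 0.0546 to 0.0631). Retnlb, which encodes the antibacterial goblet cell protein RELM-beta, had 0.527, 1.11, 0.169 and 0.261 CPM in Pectin_PFOS and 4.22, 0.191, 1.56 and 8.67 CPM in Pectin, against 16.8, 2.32 and 0.867 CPM in Inulin_PFOS and 0.0602, 0 and 0.0558 CPM in Inulin. Its Inulin libraries were at or next to 0, so no fold is given, and its call was lost without the 2 outlying libraries (adjusted p = 0.0589).

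**Figure D3:**
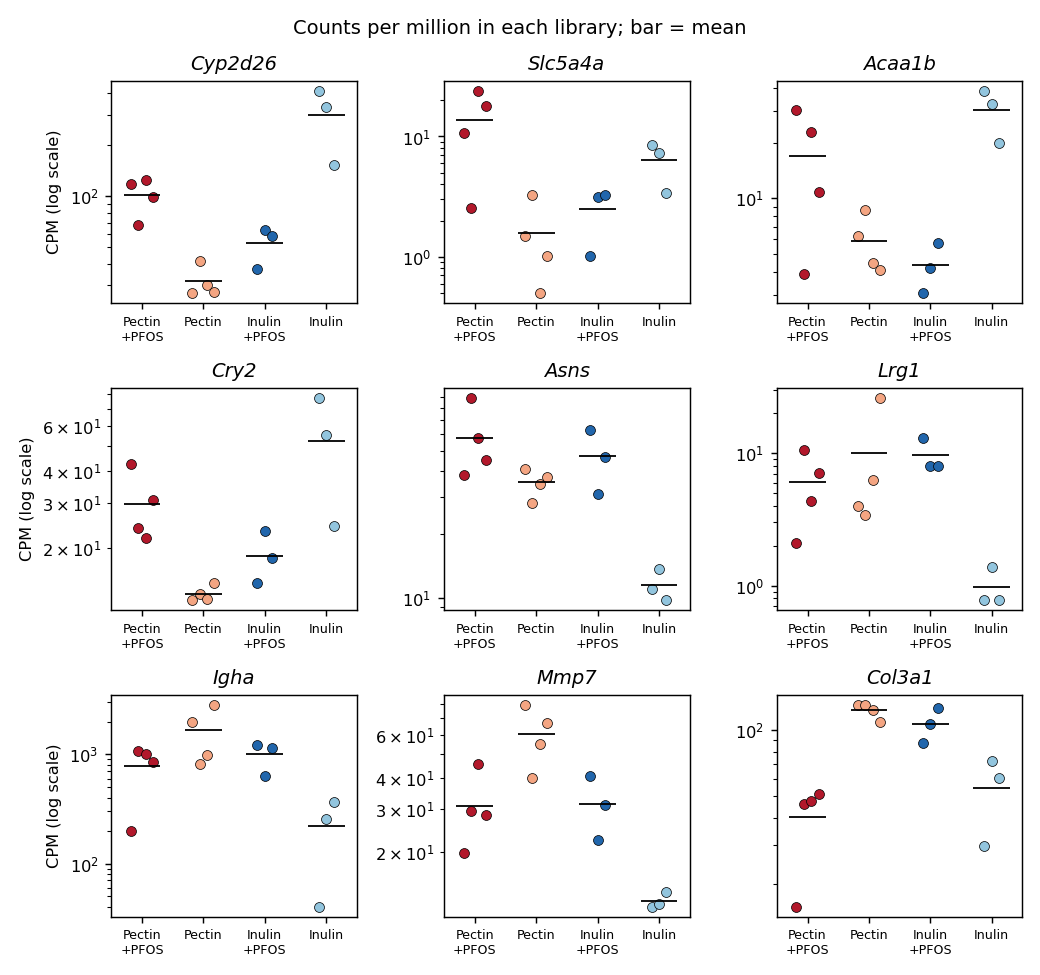
Points give the CPM of 9 genes in each library on a log scale, with Pectin_PFOS, Pectin, Inulin_PFOS and Inulin from left to right and a bar at the group mean. Cyp2d26, Acaa1b and Cry2 are higher with PFOS on pectin and lower with PFOS on inulin on average, Mmp7 and Col3a1 the reverse, and Asns is lowest in Inulin.

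Many enterocyte brush border genes were higher in Pectin_PFOS than in Pectin. Of 13 enterocyte markers tested, 6 had a higher response on pectin than on inulin and none a lower one, against 13.1% and 12.3% of all genes, with a median difference of 1.76 against −0.046 over all genes tested (6 to 7 called without single libraries). The median response was 1.38 on pectin and −0.09 on inulin. On pectin alone 8 of the 13 were called higher, against 11.4% of all genes tested. Ace, the brush border peptidase angiotensin-converting enzyme, had 1290, 935, 1090 and 938 CPM in Pectin_PFOS and 236, 220, 444 and 284 CPM in Pectin, against 612, 730 and 493 CPM in Inulin_PFOS and 642, 979 and 444 CPM in Inulin. The pectin groups were far apart and the inulin groups overlapped, so that the difference of 2.01 ± 0.46 (adjusted p = 0.00777) came with a response of 1.84 ± 0.31 on pectin (adjusted p = 0.00224) and −0.17 ± 0.34 on inulin (adjusted p = 0.816).

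Treh, the brush border trehalase, differed by 2.45 ± 0.51, Alpi, intestinal alkaline phosphatase, by 2.45 ± 0.54, and Slc15a1, the peptide transporter PEPT1, by 2.34 ± 0.52 (adjusted p from 0.00566 to 0.00729). Sis, which encodes sucrase-isomaltase, averaged 2391 CPM in Pectin_PFOS and 2632 CPM in Pectin, against 1004 CPM in Inulin_PFOS and 1613 CPM in Inulin, and was not called (adjusted p = 0.655). Without the 2 outlying libraries the list's median difference was 1.58 and 2 of the 13, Ace and Treh, were called. The summed markers lay between 34700 and 64200 CPM in Pectin_PFOS and between 12000 and 30200 CPM in Pectin, against 26800 to 29900 CPM in Inulin_PFOS and 24600 to 34400 CPM in Inulin. Leaving out Pectin_PFOS replicate 3 took the list's median to 1.05.

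Cubn and Vps33b were picked because their libraries lay apart in opposite directions on the 2 fibres. Cubn encodes cubilin, the receptor that takes up the vitamin B12 complex in the ileum (chr2:13276338-13491813). It had 1080, 498, 578 and 631 CPM in Pectin_PFOS and 239, 166, 192 and 169 CPM in Pectin, against 346, 463 and 418 CPM in Inulin_PFOS and 1060, 703 and 479 CPM in Inulin. Neither pair of groups overlapped, the 2 PFOS responses were 1.86 ± 0.29 and −0.87 ± 0.32, and the difference of 2.73 ± 0.43 (adjusted p = 0.00376) was 2.12 without the 2 outlying libraries (adjusted p = 0.0362). Vps33b, a subunit of vesicle sorting complexes, had 26.6, 19.9, 20.4 and 29.3 CPM in Pectin_PFOS and 12.2, 15, 13.6 and 11.9 CPM in Pectin, against 14.8, 20 and 15.2 CPM in Inulin_PFOS and 37, 39.8 and 25 CPM in Inulin. It too was separated on both fibres, in opposite directions, and differed by 1.89 ± 0.29 (adjusted p = 0.00376). Its responses were 0.87 ± 0.19 on pectin and −1.02 ± 0.22 on inulin. The response on pectin alone was called for both genes. The response on inulin was called for neither (adjusted p = 0.17 for Cubn and 0.0575 for Vps33b).

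Btnl2, a butyrophilin-like gene, differed by 2.18 ± 0.33 (adjusted p = 0.00376) with a response of 1.49 ± 0.22 on pectin, and its inulin libraries overlapped. Znhit3, a zinc finger gene, ran the other way, with 2.63 to 3.69 CPM in Pectin_PFOS and 7.08 to 8.56 CPM in Pectin, against 6.46 to 10 CPM in Inulin_PFOS and 4.4 to 6.02 CPM in Inulin. Its difference was −1.96 ± 0.31 (adjusted p = 0.00376). The response of Znhit3 on pectin alone was called (adjusted p = 0.00216) and that on inulin was not (adjusted p = 0.157). The differences of Btnl2 and Znhit3 were both called without the 2 outlying libraries.

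Xenobiotic metabolism genes had a positive difference in 17 of 20 tested. The test called 5 higher on pectin and 1 lower, against 13.1% and 12.3% of all genes, with median responses of 0.54 on pectin and −0.60 on inulin and a median difference of 1.20 (5 to 8 called without single libraries). Abcc2, the apical efflux pump MRP2, had 161, 57.1, 142 and 141 CPM in Pectin_PFOS and 47, 49.1, 74.4 and 24 CPM in Pectin, against 43, 47 and 36.8 CPM in Inulin_PFOS and 252, 76.9 and 141 CPM in Inulin. It was lower in every Inulin_PFOS than in every Inulin library, overlapped in 1 library on pectin, and differed by 3.25 ± 0.69 (adjusted p = 0.00617). Abcb1a, the efflux pump P-glycoprotein, differed by 2.73 ± 0.70, with 1300 CPM in Pectin_PFOS replicate 1 against 264 to 390 CPM in the other Pectin_PFOS libraries.

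The cytochromes Cyp2c55 and Cyp2c65, which oxidise drugs and fatty acids, differed by 4.56 ± 1.25 and 2.06 ± 0.50 (adjusted p = 0.0163 and 0.01). Cyp1b1, a target of the aryl hydrocarbon receptor, was the member with a lower response on pectin (−2.08 ± 0.54, adjusted p = 0.0121). The PXR and CAR targets did not all move: Cyp3a11 averaged 104 CPM in Pectin_PFOS and 61.9 CPM in Pectin, against 20.7 CPM in Inulin_PFOS and 83 CPM in Inulin, with an adjusted p of 0.151. None of the 20 genes was called without the 2 outlying libraries, where the median difference was 0.84, and without Pectin_PFOS replicate 1 alone it was 0.62.

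Targets of PPAR-alpha and fatty acid oxidation had a positive difference in 24 of 32 tested (median 0.58, and 0.29 without the 2 outlying libraries). Of the 32, 8 had a higher response on pectin than on inulin and 1, Decr1, a lower one, with median responses of 0.09 on pectin and −0.45 on inulin (1 to 10 called without single libraries). The called members are 28.1% of the list, near the 25.4% of all genes. Angptl4, a secreted inhibitor of lipoprotein lipase, differed by 2.42 ± 0.65 (adjusted p = 0.0146), with 226 CPM in Pectin_PFOS replicate 1 against 59 to 81.3 CPM in the other 3.

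Angptl4 lost its call without Inulin replicate 1, and Acaa1b, described above, was the 1 member called without both outlying libraries. Decr1, a mitochondrial dienoyl-CoA reductase, differed by −0.95 ± 0.29 (adjusted p = 0.0235) and lost its call without any 1 of Inulin replicates 1 and 2 and Inulin_PFOS replicates 1 and 3. Cpt1a, the gatekeeper of mitochondrial fatty acid import, was not called (1.01 ± 0.44, adjusted p = 0.0916). Pdk4, a PPAR-controlled kinase that restrains pyruvate oxidation, had 23.9, 6.15, 6.88 and 8.09 CPM in Pectin_PFOS and 39.1, 33.1, 23.7 and 24.6 CPM in Pectin, against 12.1, 16.2 and 15.7 CPM in Inulin_PFOS and 39.6, 47.3 and 24.2 CPM in Inulin. It was lower with PFOS on both fibres, by −1.43 ± 0.46 on pectin (adjusted p = 0.0347) and −1.33 ± 0.53 on inulin (adjusted p = 0.191), and the difference of −0.09 ± 0.69 had no stable sign.

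A few members were called in each of 4 further lists, beside 13.1% of all genes called higher and 12.3% called lower. In fat absorption 3 of 17 tested genes had a higher response on pectin and none a lower one (median difference 0.66; 1 to 4 called without single libraries), and the median was 0.37 without Pectin replicate 4, 0.43 without Pectin_PFOS replicate 3 and 1.01 without Pectin replicate 3. Tm6sf2, which acts in the lipidation of lipoproteins, had 320 to 431 CPM in Pectin_PFOS and 135 to 197 CPM in Pectin, against 204 to 296 CPM in Inulin_PFOS and 204 to 346 CPM in Inulin, and differed by 1.52 ± 0.35 (adjusted p = 0.00792). In cholesterol synthesis 4 of 24 were higher (median 0.44, and 0.26 to 0.76 without single libraries; 0 to 6 called), and of 20 endoplasmic reticulum chaperone and unfolded protein response genes 4 were higher (median 0.49; 2 to 4 called), led by Syvn1, a ubiquitin ligase of protein quality control (1.74 ± 0.33, adjusted p = 0.00453). Of 14 tight junction genes 4 were higher and 1 lower (1 to 5 called), among them F11r, the junctional adhesion molecule A (1.39 ± 0.37), and Cgn, cingulin (1.37 ± 0.39). Without the 2 outlying libraries, only Syvn1 was called in these 4 lists, and Cgn was also lost without Inulin replicate 1 or Inulin_PFOS replicate 3.

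Circadian clock genes had a higher PFOS response on pectin than on inulin. Of 19 tested, 8 were called higher and 1, Rora, lower, with median responses of 0.44 on pectin and −0.62 on inulin and a median difference of 1.22 (3 to 10 called without single libraries). The called members are 47.4% of the list, against 25.4% of all genes. Cry2, a light-independent cryptochrome that represses the clock (chr2:92403646-92434043), had 42.8, 23.9, 22 and 30.9 CPM in Pectin_PFOS and 12.6, 13.3, 12.7 and 14.7 CPM in Pectin, against 14.6, 23.3 and 18.3 CPM in Inulin_PFOS and 77.1, 55.3 and 24.4 CPM in Inulin. Both pairs of groups were separated, in opposite directions, and the difference was 2.65 ± 0.41 (adjusted p = 0.00376). The response on pectin alone was called (adjusted p = 0.00843) and that on inulin was not (adjusted p = 0.0514).

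Tef, a clock-controlled transcription factor, had 67.3, 37.9, 55.3 and 71 CPM in Pectin_PFOS and 20.4, 21.7, 17.3 and 35.4 CPM in Pectin, against 37.5, 22.1 and 19.4 CPM in Inulin_PFOS and 87.8, 98.4 and 31.1 CPM in Inulin, and differed by 2.75 ± 0.52 (adjusted p = 0.00453). Nr1d1, the repressor REV-ERB-alpha, differed by 3.79 ± 1.23 and spread from 12 to 157 CPM within Inulin. Its call was lost without any 1 of Inulin replicates 1 and 2, Inulin_PFOS replicates 2 and 3, Pectin replicate 1 and Pectin_PFOS replicate 4. Per3 (2.81 ± 0.84) was lost without Inulin replicate 1 or Inulin_PFOS replicate 3. Cry2, Tef and Per2, a period gene with a difference of 1.5 ± 0.37, were the 3 members called without the 2 outlying libraries. The hour at which tissue was taken from each animal is not given in the sources used here.

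The 2 RefSeq promoters of Tef are shown because the clock activators CLOCK and BMAL1 bind the E-box CACGTG. The 150 bases before each start are given in the direction of the gene (GRCm38.p6, plus strand), with the E-box in capitals; its letters read the same on both strands. The first window is chr15:81802523-81802672 and the second chr15:81811264-81811413.
Tef, first start: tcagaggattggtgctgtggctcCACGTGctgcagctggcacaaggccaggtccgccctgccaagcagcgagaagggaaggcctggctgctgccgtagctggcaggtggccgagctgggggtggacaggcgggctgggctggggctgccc
Tef, second start: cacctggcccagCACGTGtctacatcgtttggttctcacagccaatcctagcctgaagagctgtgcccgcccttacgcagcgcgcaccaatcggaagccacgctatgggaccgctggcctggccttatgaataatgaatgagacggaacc

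The E-box began 127 bases before the first start and 138 bases before the second. Of the 9 clock genes called, 7 had a promoter in the table and Tef alone held a CACGTG in its window, which runs from 250 bases before to 50 after a start. Of all 19 clock genes, 16 had a promoter and 5 held the E-box (Per1, Cry1, Tef, Bhlhe41 and Ciart), against 7.15% of 32851 promoter windows. A gene counted if any of its windows matched, so genes with several starts had more chances than a single window. A match is a run of letters and no evidence of binding.

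Amino acid stress genes, which ATF4 induces when amino acids run short, had positive median responses to PFOS on both fibres. Of 33 tested, 6 had a lower response on pectin than on inulin and 1, Slc3a2, a higher one, with median responses of 0.21 on pectin and 0.65 on inulin and a median difference of −0.70 (3 to 9 called without single libraries). The 7 called are 21.2% of the list, against 25.4% of all genes. On pectin 5 of the 33 rose, against 11.4% of all genes tested, and on inulin 4 rose, against 0.0698%. Asns, asparagine synthetase (chr6:7675169-7693254), had 38.3, 89.3, 57.5 and 45.4 CPM in Pectin_PFOS and 41, 28.1, 34.8 and 37.6 CPM in Pectin, against 63, 31.2 and 46.8 CPM in Inulin_PFOS and 11, 13.7 and 9.76 CPM in Inulin. The inulin groups were far apart, the pectin groups overlapped, and the Inulin libraries were lower than all 11 others. The response was 0.70 ± 0.25 on pectin (adjusted p = 0.0515) and 2.03 ± 0.30 on inulin (adjusted p = 0.00524), a difference of −1.33 ± 0.39 (adjusted p = 0.0198) that lost its call without Inulin replicate 1 or Inulin_PFOS replicate 1.

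Mthfd2, a mitochondrial enzyme of one-carbon metabolism, rose on inulin by 2.51 ± 0.32 (adjusted p = 0.00108), with 25, 18.9 and 16.8 CPM in Inulin_PFOS and 2.29, 3.73 and 4.63 CPM in Inulin, against a response of 0.64 ± 0.26 on pectin. Jdp2, a transcription repressor of the AP-1 family, had 8.83, 13.7, 14.2 and 10.5 CPM in Pectin_PFOS and 6.22, 10.2, 8 and 5.53 CPM in Pectin, against 24, 17.8 and 13.3 CPM in Inulin_PFOS and 3.01, 4.45 and 4.4 CPM in Inulin. It rose on both fibres, by 0.66 ± 0.23 on pectin (adjusted p = 0.0458) and 2.21 ± 0.28 on inulin (adjusted p = 0.00108). Nupr1, a stress-induced chromatin protein, had responses of −0.64 ± 0.29 on pectin and 1.11 ± 0.34 on inulin, neither called, and a difference of −1.76 ± 0.45 (adjusted p = 0.012). Slc3a2, the heavy chain of amino acid exchangers, instead rose on pectin by 1.38 ± 0.26 (adjusted p = 0.00377), with a response of −0.04 ± 0.29 on inulin, and its call for the difference was lost without Inulin replicate 1.

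Of 20 cytosolic aminoacyl-tRNA synthetases, which load tRNAs with their amino acids, 2 had a lower response on pectin and none a higher one (median difference −0.52; 0 to 11 called without single libraries). The called members are 10% of the list, below the 25.4% of all genes. Mars, the methionine enzyme, rose on inulin by 1.30 ± 0.22 (adjusted p = 0.0136), and its call for the difference was lost without any 1 of Inulin replicate 1, Inulin_PFOS replicates 1 and 3, Pectin replicate 4 and Pectin_PFOS replicate 4. None of the genes in these 2 lists was called for the difference without the 2 outlying libraries, where the medians were −0.51 and −0.44. The stress genes summed to 1240 to 1430 CPM in Pectin_PFOS and 896 to 1180 CPM in Pectin, against 1210 to 1430 CPM in Inulin_PFOS and 1050 to 1180 CPM in Inulin, without overlap on either fibre. The synthetases summed to 1240 to 1770 CPM in Pectin_PFOS and 1110 to 1260 CPM in Pectin, against 1090 to 1440 CPM in Inulin_PFOS and 842 to 932 CPM in Inulin, and overlapped on pectin.

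The promoters of 3 of the called stress genes are shown because they hold TGATGNAA, the core letters of the C/EBP-ATF response element that ATF4 binds. The 150 bases before the start are given in the direction of the gene (RefSeq, GRCm38.p6), with the match in capitals; in Nupr1 the match is on the opposite strand, so the capitals show its reverse complement. The windows are chr6:7693210-7693359 (minus strand) for Asns, chr12:85599266-85599415 (plus strand) for the second of 3 Jdp2 starts and chr7:126625471-126625620 (minus strand) for Nupr1.
Asns: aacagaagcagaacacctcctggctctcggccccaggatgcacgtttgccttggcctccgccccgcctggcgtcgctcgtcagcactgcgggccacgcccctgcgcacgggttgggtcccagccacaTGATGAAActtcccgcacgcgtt
Jdp2: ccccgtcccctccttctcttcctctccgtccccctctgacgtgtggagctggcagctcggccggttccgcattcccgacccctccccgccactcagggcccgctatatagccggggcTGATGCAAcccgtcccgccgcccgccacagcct
Nupr1: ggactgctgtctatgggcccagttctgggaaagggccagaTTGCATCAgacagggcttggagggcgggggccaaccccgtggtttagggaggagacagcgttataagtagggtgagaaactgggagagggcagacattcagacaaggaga

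All 7 called genes of the list had a promoter in the table and 3 held the motif on either strand. So did 11 of the 30 list members with a promoter, against 3.97% of all windows. The 2 shares are not alike, since a gene counted if any of its windows matched. The list itself was made of ATF4 targets. The 11 include Atf3, Trib3 and Chac1, which were not called. In these genes the motif does not overlap the E-box letters, although the whole Nupr1 window also holds 1 CACGTG outside the bases shown.

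Paneth cell genes had the largest negative median among the lists with 6 or more tested genes. Of 8 tested, 6 had a lower response on pectin than on inulin and none a higher one (median difference −2.48, with −1.34 on pectin and 1.24 on inulin; 2 to 8 called without single libraries). The called members are 75% of the list, against 25.4% of all genes. Mmp7, the protease that activates defensins (chr9:7692090-7699585), had 19.8, 29.3, 45.7 and 28.3 CPM in Pectin_PFOS and 79.5, 40.2, 55.2 and 67.2 CPM in Pectin, against 40.7, 22.4 and 31 CPM in Inulin_PFOS and 12, 12.3 and 13.8 CPM in Inulin. Only Pectin_PFOS replicate 3 overlapped the Pectin range, the inulin groups were apart, and the difference was −2.27 ± 0.45 (adjusted p = 0.00529).

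Itln1, intelectin, had 158, 207, 490 and 268 CPM in Pectin_PFOS and 1230, 904, 895 and 1010 CPM in Pectin, against 595, 259 and 304 CPM in Inulin_PFOS and 138, 127 and 245 CPM in Inulin. It was separated on both fibres in opposite directions (−3.03 ± 0.67, adjusted p = 0.0069), but its response on inulin alone was not called (adjusted p = 0.216). Defa24, an alpha-defensin, and Lyz1, the Paneth lysozyme, differed by −2.85 ± 0.76 and −1.95 ± 0.56 and lost their calls without Inulin replicate 1, and Defa24 also with GC and length trends removed (adjusted p = 0.0612). The summed list was 2150 to 6360 CPM in Pectin_PFOS and 6110 to 11500 CPM in Pectin, against 2280 to 4650 CPM in Inulin_PFOS and 1160 to 2220 CPM in Inulin. Mmp7 alone was called without the 2 outlying libraries, where the median was −2.20.

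Of 10 goblet cell genes 3 had a lower response on pectin (median −0.87; 1 to 4 called without single libraries), and the median was −0.55 without Inulin_PFOS replicate 3 and −0.39 with GC and length trends removed. The called members are 30% of the list, near the 25.4% of all genes. Spink4, a protease inhibitor of goblet cells, had 138, 154, 219 and 181 CPM in Pectin_PFOS and 310, 283, 249 and 347 CPM in Pectin, against 302, 216 and 393 CPM in Inulin_PFOS and 42.9, 119 and 95.5 CPM in Inulin. It was separated on both fibres, differed by −2.60 ± 0.52 (adjusted p = 0.00535) and was called without the 2 outlying libraries. Neither response alone was called (adjusted p = 0.098 on pectin and 0.0575 on inulin). Muc2, the main mucin, was not called (adjusted p = 0.314) and averaged 1906 CPM in Pectin_PFOS and 850 CPM in Pectin, against 1269 CPM in Inulin_PFOS and 928 CPM in Inulin. Of 21 other epithelial defence genes 4 (19%, against 25.4% of all genes) were lower and none higher, with a median response of 0.02 on pectin and 1.57 on inulin (2 to 8 called). Their median difference was −1.41, and −2.35 without Inulin replicate 2.

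Of 15 IgA and plasma cell genes 5 had a lower response on pectin and 1, Sdc1, which epithelial cells also make, a higher one (1 to 7 called without single libraries). The called members are 40% of the list, against 25.4% of all genes. Igha, the constant region of IgA, had 200, 1080, 1010 and 851 CPM in Pectin_PFOS and 1990, 817, 989 and 2850 CPM in Pectin, against 1210, 634 and 1150 CPM in Inulin_PFOS and 40.3, 255 and 366 CPM in Inulin. The pectin groups overlapped, every Inulin_PFOS library exceeded every Inulin library, and the difference was −3.26 ± 0.82 (adjusted p = 0.0112). Jchain, which joins IgA into dimers, had 47.9, 328, 178 and 192 CPM in Pectin_PFOS and 1550, 804, 684 and 911 CPM in Pectin, and its difference of −3.94 ± 1.09 lost its call without Inulin replicate 1. Without the 2 outlying libraries Igha was the 1 member called (adjusted p = 0.0423), and the list's median difference was −1.08 against −1.87 with them. With GC and length trends removed it was −1.14.

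Interferon-gamma induced genes were higher on average in Inulin_PFOS than in Inulin. None of them was called on pectin or on inulin alone, against 20.8% and 0.159% of all genes. Of 23 tested, 4 (17.4%) had a lower response on pectin than on inulin and none a higher one, against 25.4% of all genes called in either direction, with median responses of −0.10 on pectin and 1.45 on inulin (1 to 9 called without single libraries). Gbp2, a guanylate-binding protein that acts against intracellular pathogens, had 12.4, 44, 15 and 17.3 CPM in Pectin_PFOS and 37, 27.1, 52.6 and 15.2 CPM in Pectin, against 52.1, 41.7 and 21.5 CPM in Inulin_PFOS and 5.36, 9.18 and 13.9 CPM in Inulin. Its difference of −2.58 ± 0.75 (adjusted p = 0.0194) was lost without Inulin replicate 1. The summed list was 556 to 883 CPM in Inulin_PFOS and 244 to 362 CPM in Inulin, and no member was called without the 2 outlying libraries.

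Type I interferon genes had a positive response in 24 of 27 on pectin, with 6 called higher, against 11.4% of all genes. On inulin it was positive in 20 of 27 and none was called, where only 0.0698% of all genes were called higher. Between the fibres 3 were higher and 1, Zbp1, lower (14.8% called, against 25.4% of all genes; 1 to 5 called without single libraries). The median difference of 0.08 changed its sign with library totals as the scaling and without any 1 of 6 libraries (Inulin replicates 2 and 3, Inulin_PFOS replicates 1 and 3, Pectin replicate 1 and Pectin_PFOS replicate 3). Zbp1, a sensor of nucleic acids, differed by −2.51 ± 0.77 and was lost without any 1 of Inulin replicate 1, Inulin_PFOS replicate 2 and Pectin_PFOS replicate 1. Ddx58, the RNA sensor RIG-I, had 57.1 to 92.7 CPM in Pectin_PFOS and 30.5 to 41.3 CPM in Pectin, against 35.9 to 48.7 CPM in Inulin_PFOS and 39 to 65.4 CPM in Inulin. It differed by 1.46 ± 0.29 (adjusted p = 0.00529), also without the 2 outlying libraries. Of 16 NF-kappaB, cytokine and chemokine genes 4 were higher and 2 lower (37.5% called; median 0.56, and 0.34 without Pectin_PFOS replicate 3; 3 to 7 called). Nfkb2, the precursor of the p52 subunit, rose on pectin by 1.09 ± 0.17 (adjusted p = 0.00216), with 78.9 to 139 CPM in Pectin_PFOS and 39 to 52.7 CPM in Pectin, and its difference of 1.30 ± 0.25 (adjusted p = 0.00487) held without the pair. The 2 lower members were the chemokines Ccl2 and Cxcl5, which did not exceed 1.08 CPM in any of the 14 libraries. In antigen presentation by MHC class I, 1 of 13 was higher, Tapbp, tapasin (1.42 ± 0.37, adjusted p = 0.0125), and 1 lower (15.4% called; 1 to 3 without single libraries), and none of the 10 class II genes was called (0 to 1 without single libraries).

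**Figure D4:**
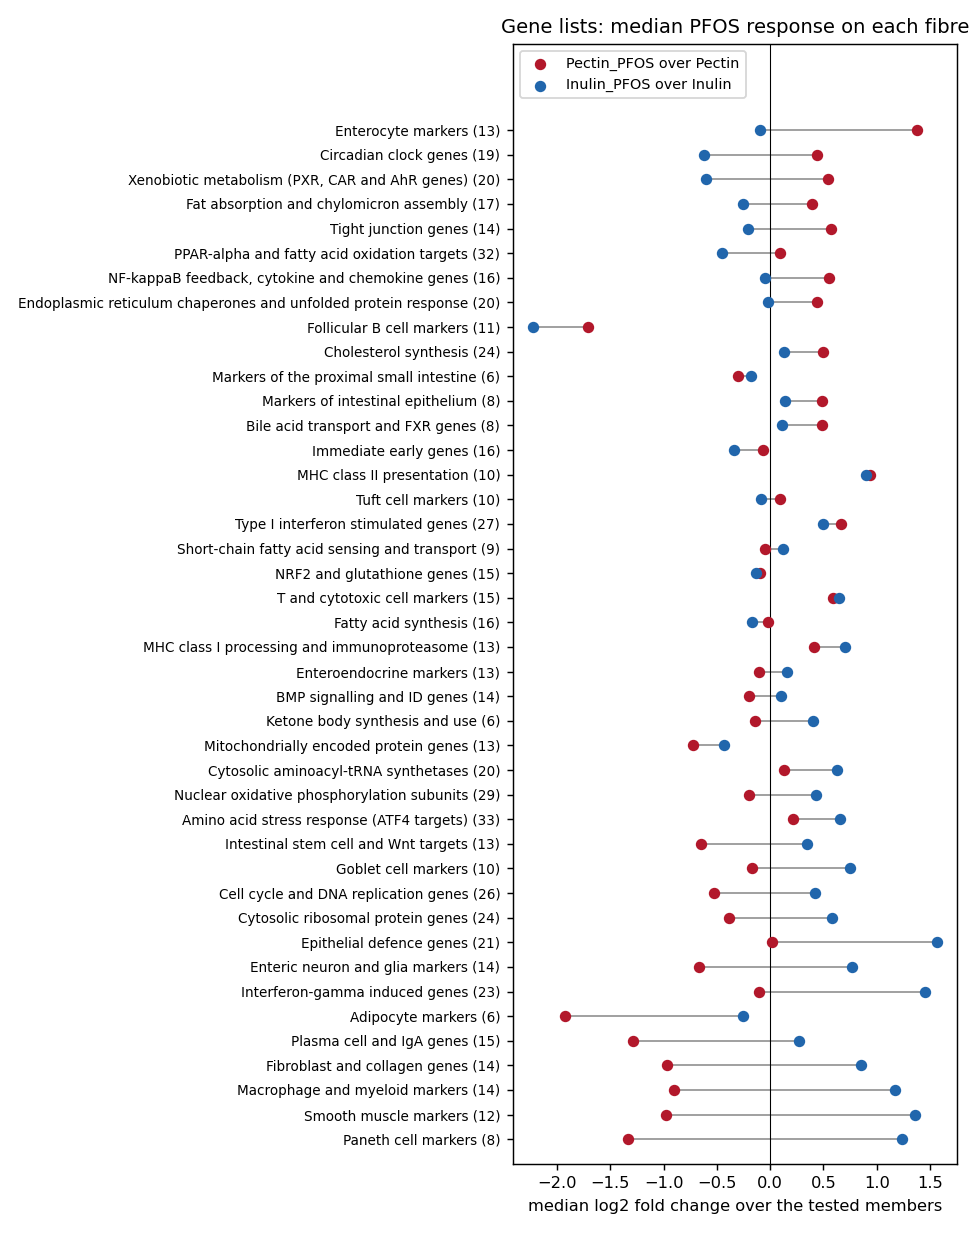
Each line is a gene list with its number of tested genes (lists of 6 or more), and points give the median log2 fold change of Pectin_PFOS over Pectin and of Inulin_PFOS over Inulin. The widest gaps with the pectin point on the right are the enterocyte (1.38 and −0.09) and xenobiotic lists (0.54 and −0.60), and the widest with it on the left is the Paneth list (−1.34 and 1.24).

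Most fibroblast, smooth muscle and myeloid genes had a lower PFOS response on pectin than on inulin. Of 14 fibroblast and collagen genes 9 were called lower, against 12.3% of all genes, and 1, Pdgfrb, higher (median −1.96; 7 to 12 called without single libraries). Col3a1, a fibrillar collagen (chr1:45311538-45349706), had 15.7, 46.2, 47.8 and 51.4 CPM in Pectin_PFOS and 130, 131, 124 and 109 CPM in Pectin, against 87.2, 107 and 126 CPM in Inulin_PFOS and 29.6, 72.7 and 60.9 CPM in Inulin. Both pairs of groups were apart, in opposite directions, and the difference was −2.59 ± 0.57 (adjusted p = 0.00699). The response on pectin alone was called (adjusted p = 0.00891) and that on inulin was not (adjusted p = 0.23). Dpt, dermatopontin, and Islr, a stromal leucine-rich repeat protein, differed by −2.33 ± 0.45 and −2.14 ± 0.43. These 3 were the fibroblast genes called without the 2 outlying libraries, where the list's median was −1.39.

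Of 12 smooth muscle genes 11 were called lower (91.7%, against 12.3% of all genes) and none higher (median −2.36; 1 to 12 called without single libraries). Myl9, a myosin light chain, had 125, 266, 206 and 187 CPM in Pectin_PFOS and 285, 427, 313 and 586 CPM in Pectin, against 410, 1010 and 503 CPM in Inulin_PFOS and 221, 390 and 138 CPM in Inulin (−2.40 ± 0.58, adjusted p = 0.00983). Exposed and unexposed libraries did not overlap on either fibre, but neither response alone was called (adjusted p = 0.0567 on pectin and 0.138 on inulin). No smooth muscle gene was called without the 2 outlying libraries, where the median was −1.85. Of 14 macrophage and myeloid genes 10 (71.4%) were lower and none higher (median −2.06; 3 to 10 called), among them Ccr2, the chemokine receptor of monocytes (−3.36 ± 0.79, adjusted p = 0.00864), and C1qa, a complement component (−2.26 ± 0.57). None of the myeloid genes was called without the 2 outlying libraries, and of 14 enteric neuron and glia genes 2 were lower with all libraries (14.3%, near the 12.3% of all genes; 0 to 5 called without single libraries).

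**Figure D5:**
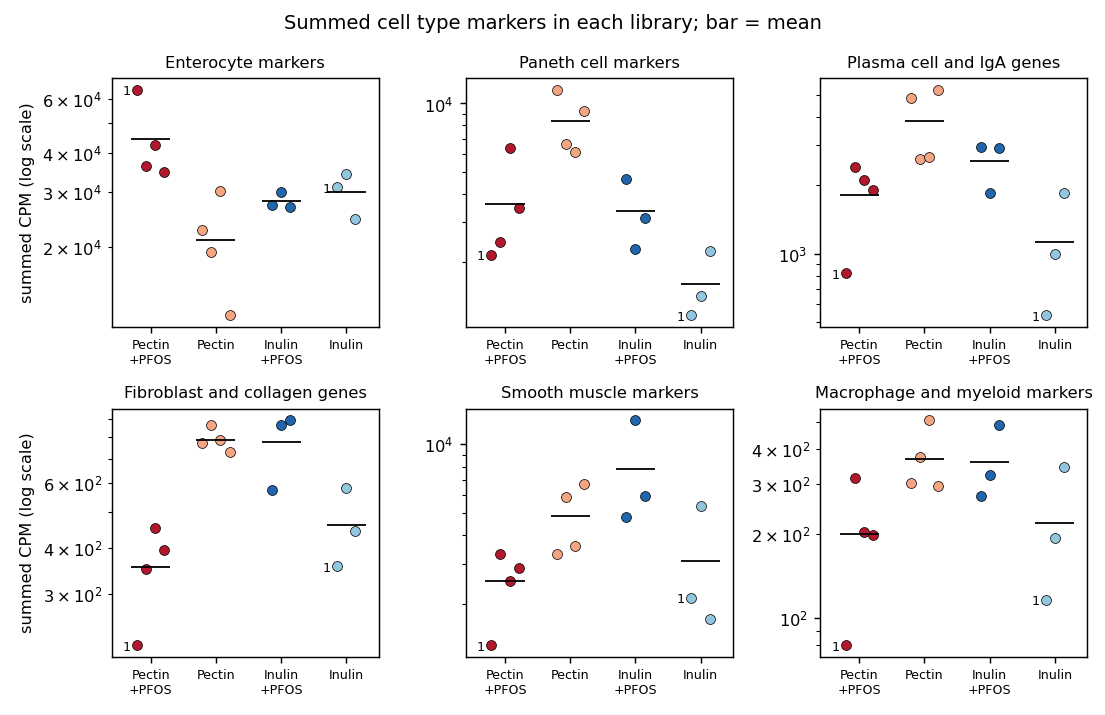
Points give the summed CPM of 6 marker lists in each library on a log scale, with Pectin_PFOS, Pectin, Inulin_PFOS and Inulin from left to right and a bar at the group mean. The points marked 1 are Pectin_PFOS replicate 1 and Inulin replicate 1, which are lowest of their groups in the Paneth cell, plasma cell, fibroblast and myeloid panels.

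The sums of these same lists give the levels by group. Fibroblast genes summed to 217 to 453 CPM in Pectin_PFOS and 728 to 866 CPM in Pectin, against 577 to 893 CPM in Inulin_PFOS and 357 to 583 CPM in Inulin. Smooth muscle genes summed to 1320 to 3320 CPM in Pectin_PFOS and 3300 to 6700 CPM in Pectin, against 4800 to 12800 CPM in Inulin_PFOS and 1730 to 5390 CPM in Inulin. Myeloid genes summed to 80 to 316 CPM in Pectin_PFOS and 296 to 507 CPM in Pectin, against 273 to 486 CPM in Inulin_PFOS and 116 to 345 CPM in Inulin. The summed levels were lower on average in Pectin_PFOS than in Pectin and in Inulin than in Inulin_PFOS for all 3 lists, and Pectin_PFOS also held the highest summed enterocyte genes. The part that the tissue make-up has in the results for epithelial, immune and clock genes was not tested.

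Genes of the translation and respiration machinery also had a lower response on pectin. Of 24 cytosolic ribosomal protein genes 11 were called lower and none higher (median −1.05; 3 to 17 called without single libraries), and of 29 nuclear oxidative phosphorylation genes 10 were lower and none higher (median −0.58, and −0.36 without Inulin_PFOS replicate 3; 4 to 13 called). The called members are 45.8% and 34.5% of these lists, against 25.4% of all genes. Rpl5, a protein of the large ribosomal subunit, had 71.7 to 100 CPM in Pectin_PFOS and 136 to 330 CPM in Pectin, against 83.8 to 174 CPM in Inulin_PFOS and 65.6 to 124 CPM in Inulin, and differed by −1.99 ± 0.53 (adjusted p = 0.0134). Ndufb8, a subunit of respiratory complex I, differed by −1.26 ± 0.29 (adjusted p = 0.00747). None of these genes was called without the 2 outlying libraries, although the medians were then −0.93 and −0.63.

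Among 13 mitochondrially encoded genes only mt-Nd3 was called, with 168, 202, 228 and 126 CPM in Pectin_PFOS and 1280, 1240, 590 and 874 CPM in Pectin, against 808, 407 and 427 CPM in Inulin_PFOS and 451, 381 and 846 CPM in Inulin. It fell by 2.46 on the log2 scale on pectin (adjusted p = 0.00216), had a response of −0.03 ± 0.44 on inulin, and its call for the difference was lost after correction for GC and length. Called genes differed in sequence make-up. The transcripts of genes called higher had a median GC share of 52.5% and a median length of 4133 bases, those called lower 48.1% and 2719 bases, and all tested genes 49.8% and 3198 bases. In the fifth of genes with the shortest transcripts 3.57% were called higher and 18.1% lower, against 20.3% and 10.5% in the fifth with the longest. With per-library GC and length trends removed, 3724 genes were called, 3128 of them among the 4007, the ribosomal median was −0.66 and the respiratory one −0.17. The part of GC share and length in the results of single genes was not tested further.

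Of 26 cell cycle genes 1 was called lower, Tyms, which makes thymidylate (−1.83 ± 0.51, adjusted p = 0.0168), although 25 of the 26 differences were negative (median −0.91; 0 to 13 called without single libraries). That is 3.85% of the list, below the 25.4% of all genes. The median was −0.59 without Inulin replicate 1 and −1.67 without Inulin replicate 3. The call of Tyms was lost without Inulin replicate 1 or Inulin_PFOS replicate 1. Of 13 stem cell and Wnt genes 2 were higher and 3 lower (38.5% called; 1 to 7 without single libraries), led by Smoc2, a matricellular protein of crypt stem cells, which had 11.2 to 25.3 CPM in Pectin_PFOS and 31.8 to 38.5 CPM in Pectin, against 24.3 to 40.9 CPM in Inulin_PFOS and 16.2 to 22.6 CPM in Inulin. Smoc2 was separated on both fibres and differed by −1.83 ± 0.39 (adjusted p = 0.00625). Its response on inulin alone was not called (adjusted p = 0.164). No gene was called among 9 short-chain fatty acid sensing genes, 15 T cell markers, 11 B cell markers, 13 enteroendocrine markers or 4 ileum markers, against 25.4% of all genes tested.

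Single responses that carried the difference were of 2 kinds. Bmp1, a procollagen-cleaving protease (chr14:70474557-70520260), had 48.7, 22, 22.2 and 32.2 CPM in Pectin_PFOS and 20.4, 21.5, 19.1 and 18.9 CPM in Pectin, against 16.6, 38.9 and 26 CPM in Inulin_PFOS and 201, 131 and 80 CPM in Inulin. The Inulin libraries stood above all the others, and Bmp1 fell on inulin by 2.34 on the log2 scale (adjusted p = 0.0136) with a response of 0.64 ± 0.32 on pectin (adjusted p = 0.145). Its difference of 2.98 ± 0.49 (adjusted p = 0.00376) was 2.32 without the 2 outlying libraries (adjusted p = 0.0362).

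Slc2a9, a urate transporter, and Cdk18, a cyclin-dependent kinase, rose on pectin and were not called on inulin. Slc2a9 had 113, 73.5, 73.1 and 76.3 CPM in Pectin_PFOS and 25.5, 29, 30.3 and 32.3 CPM in Pectin, against 56.8, 58.1 and 47.2 CPM in Inulin_PFOS and 61.1, 65.9 and 33.6 CPM in Inulin. The pectin groups were far apart and the inulin groups overlapped, with a response of 1.52 ± 0.22 on pectin (adjusted p = 0.00216), 0.01 ± 0.25 on inulin (adjusted p = 0.981) and a difference of 1.51 ± 0.34 (adjusted p = 0.00716). Cdk18 differed by 1.22 ± 0.24 (adjusted p = 0.00508) and was called without the 2 outlying libraries, which Slc2a9 was not (adjusted p = 0.0564).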

How the data were processed

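Per the labels' protocols, total RNA of intestinal tissue was made into stranded libraries and sequenced by BGI. For each gene the authors deposited an estimated count, which need not be whole, and a TPM value, transcripts per 1000000 after division by length. HISAT, Bowtie2 and the build GRCm39 are named, without versions or roles, per the submitters' processing notes. Which program counted the reads, and whether it used strand, is not given in the sources used here. The deposited coordinates are nevertheless those of GRCm38 for most genes: GENCODE M21 shares 46091 genes with the files, and 38946 of these have an identical start and end, and all coordinates printed here are on GRCm38. Promoter sequences are RefSeq's on GRCm38.p6.

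The expected counts were rounded, filtered with filterByExpr and scaled by TMM, and 15763 of 46603 genes were fitted in edgeR 4.0.16 (R 4.3.3; quasi-likelihood F test with the robust option), in 1 model with a mean for each of the 6 groups over 22 libraries. Tests were two-sided, with Benjamini-Hochberg adjustment over all genes tested, and a gene was called at an adjusted p under 0.05. CPM are counts per 1000000 after TMM scaling, and each SE was derived from the size of the log2 fold change and its F statistic. The biological coefficient of variation was 31.9%. A principal component analysis used the 2000 most variable genes. Libraries of a group differed by far more than counting error (chi-square per degree of freedom of at least 27.9). The alternatives that leave out 2 libraries together or remove GC and length trends were chosen after seeing the data. Others used DESeq2 1.42.0, limma 3.58.1 on log2(TPM + 1) with TPM of at least 1 in 3 libraries, other scalings and filters, and libraries left out.

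The comparison, the 46 gene lists and the rule for naming genes were chosen with earlier results of these data known, and lists share members. The rule took the 12 highest and 12 lowest called genes by difference with a mean of at least 1 CPM (without predicted genes), up to 4 called members of each list, the 2 list members of smallest p for lists described, the genes Cpt1a, Pdk4, Angptl4 and Asns, the 5 genes of smallest p in each single response and up to 6 genes with opposite responses; a part of these is described. List members named outside the rule, among them Sis, Muc2, Cyp3a11, Pdgfrb, Rora and Sdc1, were chosen after their values were seen. Near-identical copies make Cyp2d26, Cyp2c55, Cyp2c65, Slc5a4a, Gsdmc4, Mnda, Gbp2, Itln1, Defa24, Lyz1, Igha and Rpl5 uncertain, since how reads were shared is not stated. Exons of Acaa1b, Treh, Znhit3, Nr1d1, Mars, Nfkb2, Rpl5 and Syvn1 overlap a protein-coding gene on the other strand, and those of Tapbp, Islr and Ndufb8 one on the same strand, in GENCODE M21.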

Additional observations from a re-analysis of the deposited data

Results flagged for a closer look

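The test of the difference itself called 4007 genes whose PFOS response was not the same on pectin and on inulin, and the genes behind that number are given above. In the groups of 4 libraries, 1 library lay far from the other 3 for 16 of 152 gene or library measures examined in Pectin_PFOS and Pectin. The cut-off flags about 5% of independent measures with a normal distribution. CPM of many genes in the same libraries are not of that kind, so the number flagged by chance here is not known.

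Pectin_PFOS replicate 1 was the library apart for 6 genes, with 178 CPM of Cyp2c55, 1300 CPM of Abcb1a, 226 CPM of Angptl4, 23.9 CPM of Pdk4 and 113 CPM of Slc2a9, each the highest of its group, and 15.7 CPM of Col3a1, the lowest. Pectin_PFOS replicate 2 was the highest of its group for Mars (53.2 CPM) and Gbp2 (44 CPM), and replicate 3 for Lyz1 (1500 CPM). Among the Pectin libraries, replicate 2 was the highest for Slc2a2 (36.9 CPM) and Slc28a1 (3.59 CPM), replicate 1 for Lyz1 (3600 CPM), replicate 4 for Lrg1 (26.2 CPM) and replicate 3 for Tm6sf2 (197 CPM). Pectin replicate 3 was the lowest for Gsdmc4 (12.1 CPM) and Smoc2 (31.8 CPM). Groups of 3 libraries, as on inulin, are too small for this examination.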

How the results depend on the processing

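All 71 called genes followed through the alternatives kept the direction of their difference under every alternative run for them, while counts of calls moved. Without single libraries, the calls for the difference ranged from 1353 to 4591, those on pectin from 1360 to 3481, those on inulin from 2 to 147, and the genes with opposite, non-overlapping responses from 956 to 2271 against 938 with all libraries. Without Pectin_PFOS replicate 1 and Inulin replicate 1 together they were 421, 1277, 2 and 1000. Non-overlap is easier to reach with fewer libraries, so a higher count of opposite responses there follows from how that count is defined. DESeq2 called 497 genes on inulin against 25 with edgeR, and the GC and length correction 69. With the 14 libraries on inulin and pectin alone, 15155 genes passed the filter. Of these 3910 were called for the difference, 48.7% of them higher. On log2(TPM + 1) limma called 2326 genes for the difference, 70.5% of them higher against 51.7% in the counts, with 1410 on pectin and 11 on inulin. With a pseudocount of 0.1 these were 2570, 1621 and 14, and without the filter 914, 722 and 10. Scaling by library totals moved the median of all genes to −0.22, and 31.6% of 3128 called genes were then higher. On pectin 19.4% of 2962 were, against 54.6% of 3277, and the genes with opposite responses numbered 636. Of 994 results for called genes without 1 library, 39 lost their call, as did 94 of 918 under other alternatives. The difference of Pdk4, which was not called, turned positive on log2(TPM + 1) with and without the filter (0.071 in both) and with the GC and length correction (0.07), and ranged from −0.764 to 0.15 without single libraries. The cause of the other changes was not tested.

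The replicate numbers were not shown to pair the samples. They are the bio rep numbers of the titles, and for replicate 2 on inulin the sample names themselves carry different numbers. Correlations of same-numbered libraries ran from −0.3 to 0.24, and 2 of 7 correlated best with their own number. A fit with the replicate block called 4422 genes for the difference, 3861 on pectin and 33 on inulin. With 3 libraries a group on inulin, the spread of single libraries limits what the inulin response can show.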

Other observations

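Further gene groups had a few called members each, beside 25.4% of all genes tested. Of 16 fatty acid synthesis genes, 2 had a higher PFOS response on pectin than on inulin and 2 a lower one (2 to 4 called without single libraries). Mlxipl, the sugar-sensing transcription factor ChREBP, differed by 2.67 ± 0.68 (edgeR, adjusted p = 0.0117), with 61.4, 30.7, 139 and 140 CPM in Pectin_PFOS and 49.2, 71, 25.1 and 50.3 CPM in Pectin, against 26.9, 40.2 and 38 CPM in Inulin_PFOS and 109, 140 and 105 CPM in Inulin. The pectin groups overlapped and the inulin groups did not. Srebf1, a transcription factor of lipid synthesis, differed by 1.10 ± 0.26, and the enzymes Me1 and Fads1 by −1.61 ± 0.56 and −1.36 ± 0.45.

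Of 15 NRF2 and glutathione genes, 3 had a lower response on pectin and none a higher one (0 to 5 called without single libraries). Gpx2, the glutathione peroxidase of the gut epithelium, had 252, 691, 419 and 619 CPM in Pectin_PFOS and 799, 554, 731 and 684 CPM in Pectin, against 981, 533 and 716 CPM in Inulin_PFOS and 89.9, 274 and 147 CPM in Inulin (−2.61 ± 0.68, adjusted p = 0.0125). The inulin groups were apart and the pectin groups overlapped. Of 14 BMP signalling genes 3 were lower and none higher (1 to 5 called), among them Grem1, a secreted BMP antagonist (−2.38 ± 0.60). In ketone body metabolism 2 of 6 were lower (1 to 3 called), among them Acat1, a mitochondrial thiolase (−1.22 ± 0.30). Ptgs1, cyclooxygenase 1, was the 1 of 10 tuft cell markers called (1 to 2 without single libraries), with 8.1 to 16.2 CPM in Pectin_PFOS and 18.2 to 27.3 CPM in Pectin, against 21.4 to 29.1 CPM in Inulin_PFOS and 12.6 to 15.1 CPM in Inulin, and it differed by −1.69 ± 0.29 (adjusted p = 0.00376). Without the 2 outlying libraries, no gene of the NRF2, BMP and ketone lists was called.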
